A study of Mus musculus with 24 samples.

Results

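Axon guidance ligands and receptors were examined as a group of 69 genes, chosen by gene symbol from the 26411 genes counted: 14 Eph receptors, 8 ephrins, 20 semaphorins, 11 plexins and neuropilins, 7 Slits and Robos, and 9 netrins and netrin receptors (Ntn, Unc5 and Dcc). The RNA came from neural stem and progenitor cells (NSPCs) grown from the dorsal telencephalon, which forms the cerebral cortex, of E12.5 C57BL/6 mouse embryos. The embryos carried both functional copies of Kat6a, a histone acetyltransferase gene (Kat6a+/+, labelled WT), 1 copy (Kat6a+/–, labelled HET KO) or none (Kat6a–/–, labelled HOM KO), and the null allele lacked exons 4 to 8. Each genotype was sequenced in 4 libraries as proliferating NSPCs, kept 3 days in neurosphere medium with FGF2 and EGF, and in 4 libraries as differentiating NSPCs, kept 3 days in 1% fetal bovine serum on poly-L-ornithine and laminin, which gave 24 libraries in 6 groups. Each library was the culture of a single embryo, and 6 embryo labels occurred in both conditions. RNA was extracted with a different kit in each condition, so kit and condition cannot be told apart. The allele was constitutive, so the cells lacked Kat6a from the start of development and not only during the culture.

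Guidance cues steer growing axons and migrating neurons, and in the embryonic cortex many of them are also made by the dividing progenitors. Slits are secreted proteins that repel cells carrying Robo receptors. Netrins are secreted proteins that attract through Dcc and repel through Unc5 receptors. Semaphorins are secreted or membrane-bound and act mainly through plexins, and the secreted Sema3 proteins also use the neuropilins Nrp1 and Nrp2. Ephrins are anchored to the cell surface and bind Eph receptor tyrosine kinases on neighbouring cells, with signals passing in both directions.

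Promoter sequence was taken from RefSeq for the member with the largest called rise and the largest called fall in Kat6a–/– vs. Kat6a+/+ NSPCs in each condition, among members with a usable promoter entry. A usable entry meant 1 entry, and no more than 30 of the 250 bases before the start in an annotated exon. The choice thus rested on the entries as well as on the size of the change. The tabled promoters, on GRCm38.p6, were each found at a single place in mm39, and only the bases ahead of any annotated exon are printed, 5′ to 3′ on the strand of the gene, with CG dinucleotides in capitals. Ephb1 rose in proliferating NSPCs (chr9:102231899-102232142, minus strand), Slit2 fell in proliferating NSPCs (chr5:48140247-48140479, plus strand), Epha2 rose in differentiating NSPCs (chr4:141028282-141028531, plus strand) and Epha3 fell in differentiating NSPCs (chr16:63684539-63684788, minus strand). Slit2 and Epha2 had the largest changes of all called members of their kind with a fitted mean log2 CPM above 0, while Ephb1 ranked 10 among the 15 rises and Epha3 ranked 5 among the 18 falls.
Ephb1: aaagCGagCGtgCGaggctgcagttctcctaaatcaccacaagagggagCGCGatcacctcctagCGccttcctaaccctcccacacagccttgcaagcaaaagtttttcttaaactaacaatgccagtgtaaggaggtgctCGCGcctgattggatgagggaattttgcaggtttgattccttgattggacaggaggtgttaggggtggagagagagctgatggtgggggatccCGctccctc
Slit2: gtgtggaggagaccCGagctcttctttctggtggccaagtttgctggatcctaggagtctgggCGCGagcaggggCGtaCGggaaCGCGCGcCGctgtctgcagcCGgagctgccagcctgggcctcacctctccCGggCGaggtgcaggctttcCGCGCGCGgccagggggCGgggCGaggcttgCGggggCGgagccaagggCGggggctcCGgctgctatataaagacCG
Epha2: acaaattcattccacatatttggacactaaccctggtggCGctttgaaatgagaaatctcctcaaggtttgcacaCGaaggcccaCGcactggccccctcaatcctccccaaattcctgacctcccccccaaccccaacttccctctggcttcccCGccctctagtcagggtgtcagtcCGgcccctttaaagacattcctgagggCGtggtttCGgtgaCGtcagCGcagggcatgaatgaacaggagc
Epha3: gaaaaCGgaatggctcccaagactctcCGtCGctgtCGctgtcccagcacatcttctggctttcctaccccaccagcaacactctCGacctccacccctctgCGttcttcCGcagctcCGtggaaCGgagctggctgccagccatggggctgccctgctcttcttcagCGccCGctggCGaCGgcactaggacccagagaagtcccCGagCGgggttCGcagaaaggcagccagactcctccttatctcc
The Slit2 sequence held 23 CG dinucleotides in 233 bases, 3 copies of GGGCGG and 1 TATAAA, whereas the Ephb1 sequence held 9 CG in 244 bases and neither motif. The Epha2 sequence held 9 CG in 250 bases and 1 GGGCGG, and the Epha3 sequence held 16 CG in 250 bases and neither motif. Promoter entries were found for 59 of the 69 members (75 promoters), and their median was 15 CG dinucleotides in the 250 bases ahead of the start, with a range of 0 to 46, compared with a median of 6 over all 32851 promoters. GGGCGG, the GC box core read on both strands, was present in 70.7% of member promoters and 32.7% of all promoters. TATAAA was present in 2.67% and 12.4%, and CANNTG, the E-box, in 48.0% and 66.2%, both also read on both strands. The set of all promoters held 27025 gene symbols and was not limited to the protein-coding genes tested here. A difference from it is therefore not shown to be particular to the members. A match of letters describes the sequence only, and overlaps between motifs were not removed.

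Library totals ranged from 7826660 to 40838203 counts, of which the 69 members made up 0.328% to 0.472%. Levels are given as CPM, read counts scaled to a common library size over the tested genes with TMM factors, separately in each condition, and differences as log2 fold changes with a standard error (SE) and a false discovery rate (FDR) from limma, fitted to all protein-coding genes that passed a filter on low counts and called at an FDR under 0.05. In bulk RNA, fewer cells of a type and less RNA per cell cannot be told apart. Y-linked genes were above 100 CPM in 3 of 4 Kat6a+/+, 1 of 4 Kat6a+/– and 1 of 4 Kat6a–/– libraries in each condition, so the sexes were unevenly spread over the genotypes, and the part of this in the results was not tested; Efnb1, Plxna3 and Plxnb3 are the X-linked members. Kat6a RNA over the whole gene was at 344 to 397 CPM in proliferating Kat6a–/– and 378 to 405 CPM in Kat6a+/+ libraries, and at 160 to 250 and 236 to 290 CPM in differentiating libraries. Counts of a whole gene cannot show whether some of its exons were deleted.

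The differentiating Kat6a–/– libraries stood apart from each other. Replicates 1 and 3 lay on one side of replicates 2 and 4 in 51 of the 63 members tested (81.0%), and in 64.5% of all 13339 genes. Gfap, an astrocyte marker, was at 148, 1879, 256 and 986 CPM in Kat6a–/– replicates 1 to 4, compared with 338 to 698 CPM in Kat6a+/+ libraries. The quality weights that the fit of the differentiating NSPCs uses gave Kat6a–/– replicate 3 69.0% of the weight in its group, replicate 1 16.8%, replicate 4 10.0% and replicate 2 4.22%. Values and counts of members in differentiating Kat6a–/– NSPCs are therefore given with a mark of whether they were called without these weights, or without the libraries that decide them, and counts of other gene lists with and without the weights.

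**Figure D1:**
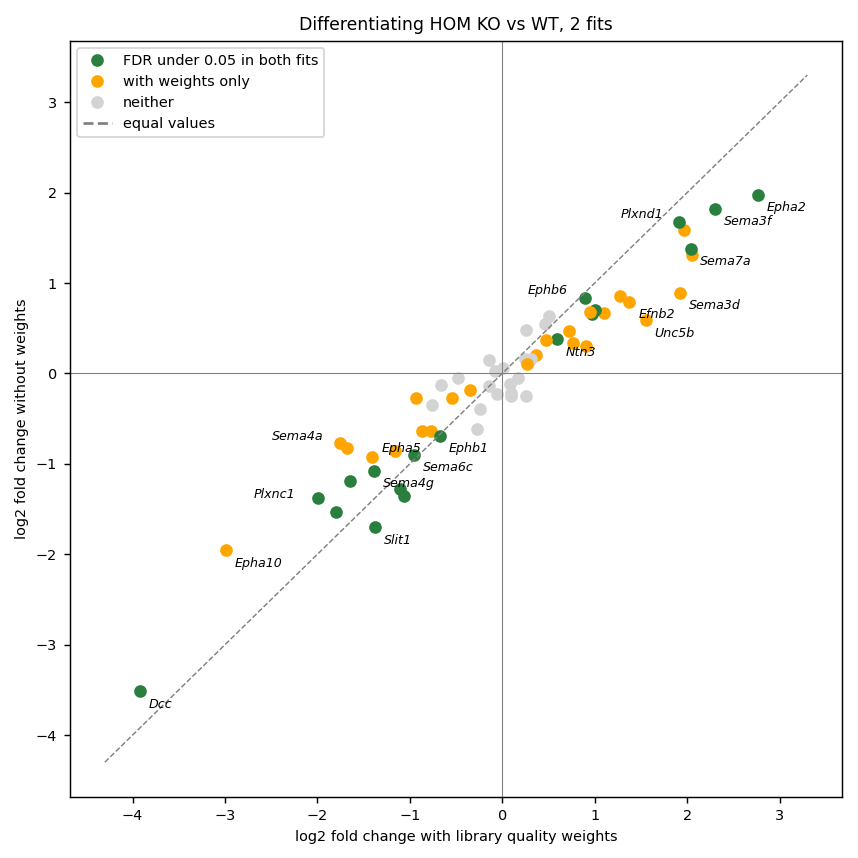
Log2 fold changes of the tested members in differentiating Kat6a–/– vs. Kat6a+/+ NSPCs, with library quality weights on the x axis and without them on the y axis; each point is a member, green points were called in both fits, orange points with the weights only and grey points in neither, and the dashed line marks equal values. All 18 members called without weights were among the 42 called with them, and 7 uncalled members changed sign.

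Markers of other cell states moved with genotype, and their part in the results was not tested. In differentiating Kat6a–/– NSPCs, 5 of 5 markers of dividing cells were lower (summed level 36.1 to 169 CPM, Kat6a+/+ 481 to 843 CPM), and so were 3 of 4 markers of intermediate progenitors, with 1 higher (7.17 to 16.1 CPM, Kat6a+/+ 63.3 to 197 CPM). Of 7 neuronal markers 4 were lower and 1 was higher, with summed levels that overlapped (467 to 769 CPM, Kat6a+/+ 541 to 731 CPM), while Dcx, the doublecortin gene of young neurons, was at 0.966 to 7.75 CPM compared with 14.9 to 70.3 CPM. Both tested markers of mesenchyme were higher (summed level over 6 genes 9.79 to 180 CPM, Kat6a+/+ 2.83 to 17.96 CPM). Of 5 astrocyte markers 1 was higher and 2 were lower (512 to 3629 CPM, Kat6a+/+ 720 to 1409 CPM), and the only endothelial marker tested, Kdr, was lower. Of 4 markers of the ventral telencephalon 3 were lower (1.92 to 3.98 CPM, Kat6a+/+ 5.63 to 28.7 CPM), and of 4 oligodendrocyte lineage markers 3 were lower and 1 was higher (633 to 1177 CPM, Kat6a+/+ 1176 to 1382 CPM). Of 7 radial glial markers 2 were higher and 4 lower (2903 to 4246 CPM, Kat6a+/+ 3015 to 3711 CPM). Without weights the markers called were 5 of dividing cells, 2 of intermediate progenitors, 1 of the ventral telencephalon and 2 of the oligodendrocyte lineage, all lower, with Kdr lower, 3 neuronal markers lower and 1 higher, 2 radial glial markers lower and 1 higher, and 1 mesenchymal and 1 astrocyte marker higher. In proliferating Kat6a–/– NSPCs, 3 of 4 astrocyte markers tested were higher (206 to 319 CPM, Kat6a+/+ 110 to 151 CPM), and none of 5 markers of dividing cells was called. The 4 microglial markers summed to 6.53 to 8.39 CPM in proliferating Kat6a–/– and 1.23 to 1.40 CPM in Kat6a+/+ libraries, and P2ry12, the only one tested, was higher (log2 fold change 2.51), while Aif1, Csf1r and Cx3cr1 were at no more than 0.221 CPM; the 4 summed to no more than 0.841 CPM in differentiating libraries. Of 6 neuronal markers tested in proliferating NSPCs 3 were lower and 1 was higher (summed level 1058 to 1157 CPM, Kat6a+/+ 851 to 1091 CPM). Of 7 radial glial markers 2 were higher and 1 was lower there (4614 to 5357 CPM, Kat6a+/+ 4190 to 4533 CPM), and of 4 oligodendrocyte lineage markers tested 1 was higher. The only markers tested of intermediate progenitors and of the ventral telencephalon were higher (log2 fold change 0.87 and 1.22). The only endothelial marker tested was not called, and no mesenchymal marker was tested.

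In proliferating NSPCs, loss of Kat6a was accompanied by higher RNA levels of the receptors Plxnc1, Robo2, Robo1 and Epha5 and of the cue Sema6a, and by lower levels of the repellent Slit2. The receptor Epha4 and the cue Sema5a were also called higher and the netrin receptor Unc5b lower, but these calls were lost with litter as a fixed term. Of the 69 members 55 were tested, and 24 of these (43.6%) were called in Kat6a–/– vs. Kat6a+/+ NSPCs, 16 higher and 8 lower, compared with 30.0% of all 12276 genes, of which 16.2% were called higher and 13.8% lower. The median absolute log2 fold change was 0.41 among the tested members and 0.21 among all genes tested, while the median signed difference was 0.07 and -0.0045. By family, 4 semaphorins rose and 1 fell of 15 tested, 3 plexins and neuropilins rose and 2 fell of 11, 3 Eph receptors rose and 1 fell of 10, 2 netrin family genes rose and 1 fell of 8, 2 ephrins rose and 2 fell of 7, and 2 of the Slits and Robos rose and 1 fell of 4. The Kat6a–/– libraries lay wholly above the Kat6a+/+ libraries in 13 of the 55 tested members, compared with 15.9% of all genes, and wholly below in 7, compared with 14.9%. In the litters that held both genotypes, 15 of the 16 risen members were higher in Kat6a–/– in both litters 4633 and 4746, with Epha4 the exception, and all 8 fallen members were lower in both. The libraries of these litters are part of the fit that made the calls, so this agreement is no separate check. The same share over all called genes was not counted. Without Kat6a+/+ replicate 1 15 members were called, 11 higher and 4 lower (18.7% of all genes), and with litter as a fixed term 14 were called (15.8% of all genes).

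**Figure D2:**
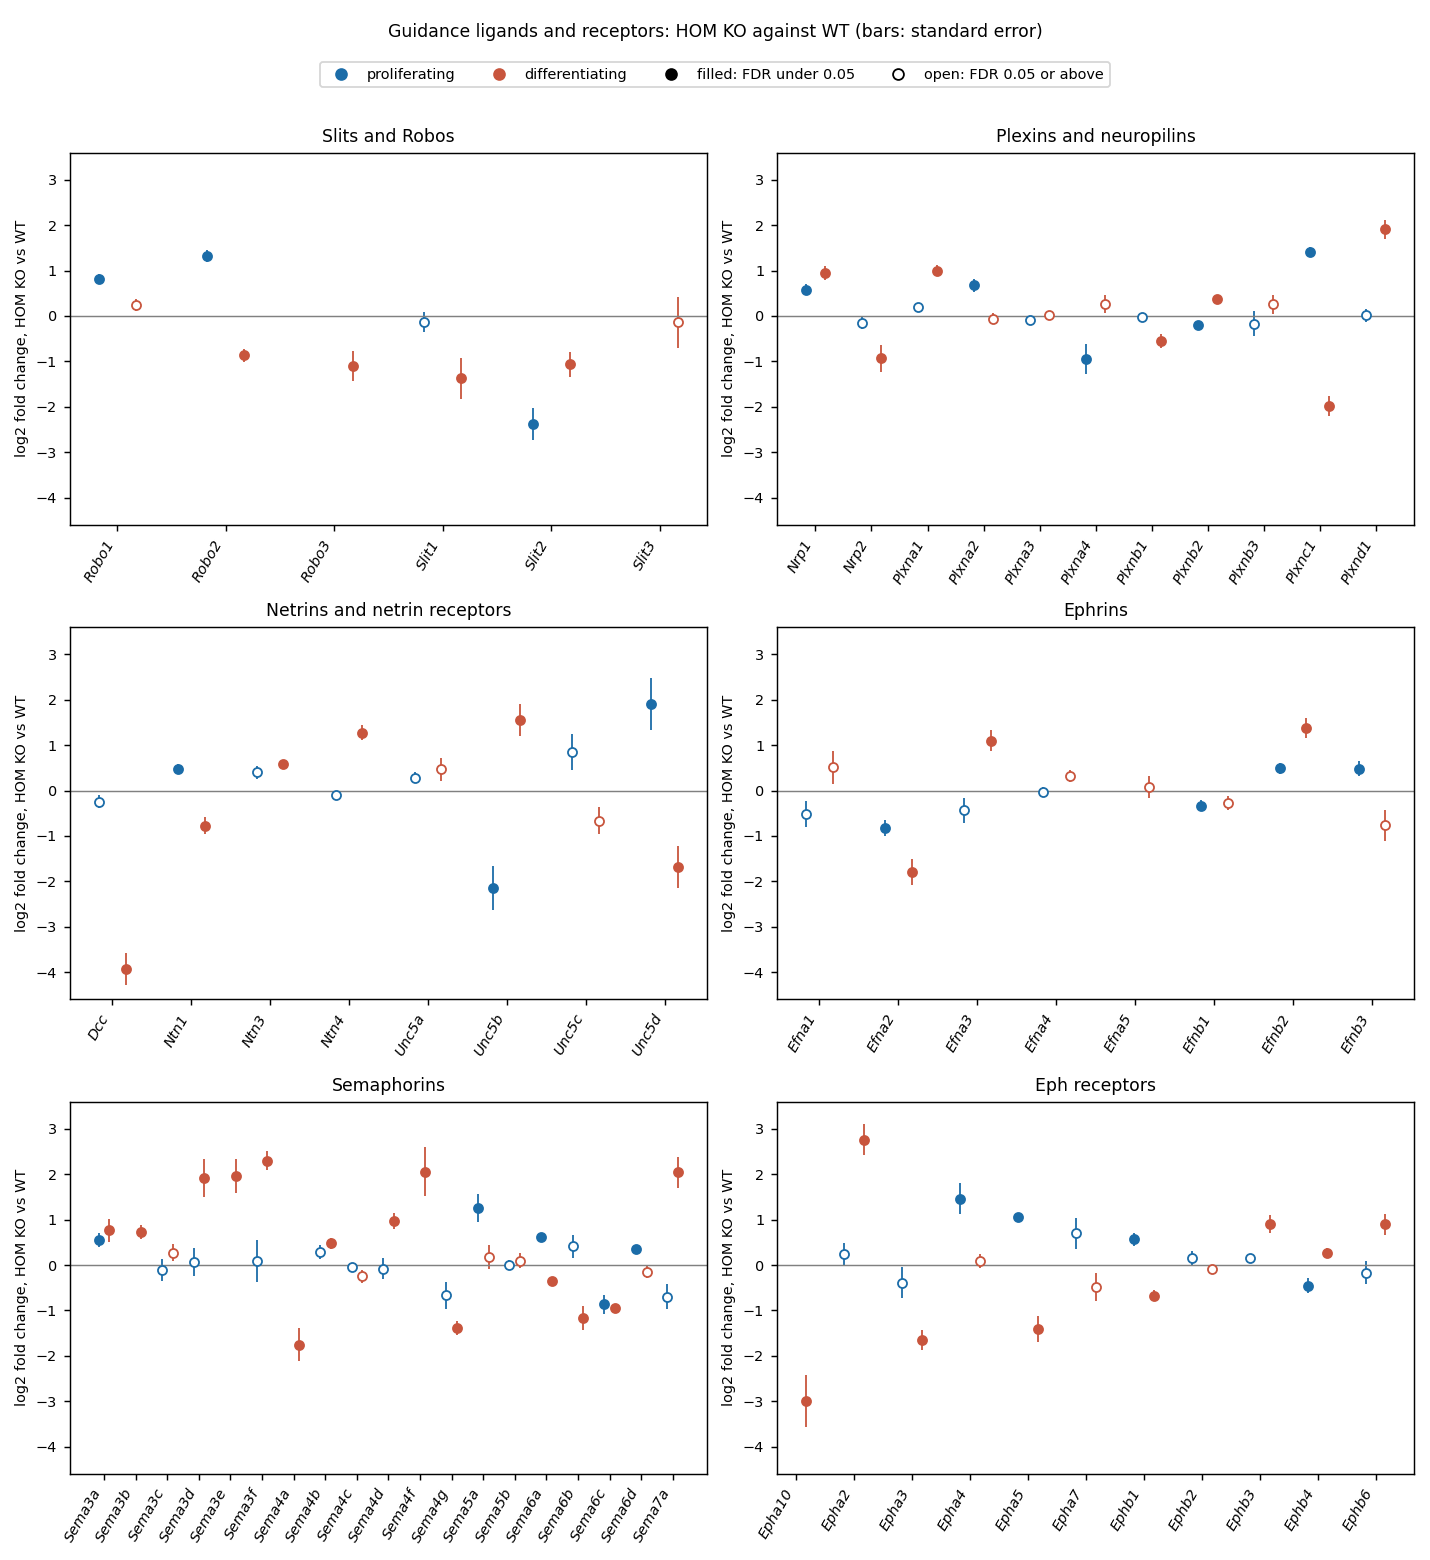
Log2 fold changes of the tested members in Kat6a–/– vs. Kat6a+/+ NSPCs by family, in proliferating and differentiating NSPCs; each point is a gene with its standard error, blue for proliferating and red for differentiating NSPCs, and filled points were called at an FDR under 0.05. Called members lie on both sides of 0 in every family except the Slits and Robos in differentiating NSPCs, where 4 of 6 fell and none rose.

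Among the repellent Slits, Slit2 fell. Slit2 was at 3.11, 3.25, 2.50 and 3.85 CPM in proliferating Kat6a+/+ libraries, at 1.61, 2.60, 1.23 and 1.198 CPM in Kat6a+/– libraries and at 0.577, 0.524, 0.664 and 0.411 CPM in Kat6a–/– libraries. All 4 Kat6a–/– libraries were below all Kat6a+/+ and Kat6a+/– libraries, on 4 to 6 reads each. The mean CPM was 5.84-fold lower in Kat6a–/– than in Kat6a+/+ NSPCs (log2 fold change -2.38, SE 0.35, FDR 0.000367 by limma-voom), and the difference was -1.999 and -2.37 within litters 4633 and 4746. Slit1 was at 3.21 to 4.93 CPM in Kat6a+/+ cells and 2.36 to 4.32 CPM in Kat6a–/– libraries, which overlapped (log2 fold change -0.13, limma FDR 0.689), and Slit3 had at most 1 read in any proliferating library and was not tested.

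The Slit receptors Robo1 and Robo2 rose. Robo1 was at 102, 130, 105 and 97.5 CPM in Kat6a+/+ cells, 114, 128, 151 and 133 CPM in Kat6a+/– cells and 201, 185, 162 and 233 CPM in Kat6a–/– libraries. Robo2 was at 20.2, 19.7, 18.8 and 19.7 CPM in Kat6a+/+ cells, 24.1, 20.7, 29.3 and 38.5 CPM in Kat6a+/– cells and 53.3, 44.0, 53.4 and 50.6 CPM in Kat6a–/– libraries. For both genes the lowest Kat6a–/– library was above the highest Kat6a+/+ and Kat6a+/– library. Robo2, which spans 1555.5 kb of chromosome 16 (16:73688727-75244270, minus strand, mm39), was 2.57-fold higher in mean CPM (log2 fold change 1.33, SE 0.14, limma FDR 3.59e-05), with 1.36 and 1.44 within the litters, and Robo1 had a log2 fold change of 0.82 (SE 0.11, limma FDR 0.000182).

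In the netrin family the receptor Unc5b, which mediates repulsion, fell and the ligand Ntn1 rose. Unc5b was at 55.1, 83.8, 31.2 and 72.8 CPM in Kat6a+/+ cells, 44.9, 26.0, 64.7 and 29.8 CPM in Kat6a+/– cells and 7.73, 15.9, 11.4 and 12.2 CPM in Kat6a–/– libraries. The Kat6a–/– libraries were below all others, while the Kat6a+/+ and Kat6a+/– libraries overlapped. The mean CPM of Unc5b was 5.14-fold lower (log2 fold change -2.15, SE 0.48, limma FDR 0.00668), with -1.48 and -2.66 within the litters, and with litter as a fixed term the call was lost (-1.98, limma FDR 0.0516). Ntn1 was at 193, 171, 202 and 213 CPM in Kat6a+/+ cells, 222, 225, 240 and 180 CPM in Kat6a+/– cells and 309, 281, 297 and 204 CPM in Kat6a–/– libraries, where 3 of 4 Kat6a–/– libraries were above all Kat6a+/+ libraries (log2 fold change 0.48, SE 0.10, limma FDR 0.00449). Dcc, the attractive netrin receptor, was at 39.5, 43.1, 59.1 and 46.6 CPM in Kat6a+/+ cells, 34.1, 45.5, 42.0 and 41.6 CPM in Kat6a+/– cells and 40.4, 53.4, 43.3 and 29.4 CPM in Kat6a–/– libraries and was not called (log2 fold change -0.25, limma FDR 0.203). Unc5d was near the limit of detection at 0.241 to 0.700 CPM in Kat6a+/+ cells and 0.918 to 2.98 CPM in Kat6a–/– libraries; its call (log2 fold change 1.91, SE 0.57, limma FDR 0.0234) was lost when any of Kat6a–/– replicate 3 or 4 or Kat6a+/+ replicate 1, 2 or 4 was left out, and with litter as a fixed term (1.11, limma FDR 0.268).

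Plxnc1, the receptor of Sema7a, had the smallest FDR of the tested members. It was at 23.3, 22.8, 21.2 and 21.7 CPM in Kat6a+/+ cells, 26.0, 25.1, 30.3 and 29.0 CPM in Kat6a+/– cells and 75.7, 50.9, 54.9 and 60.6 CPM in Kat6a–/– libraries. The 3 genotypes did not overlap, with Kat6a+/– between the others. The mean CPM was 2.72-fold higher in Kat6a–/– than in Kat6a+/+ NSPCs (log2 fold change 1.41, SE 0.12, limma FDR 1.01e-05), with 1.55 and 1.33 within the litters. Plxna2 (log2 fold change 0.67) and the neuropilin Nrp1 (0.58), co-receptors of secreted semaphorins, rose as well, whereas Plxna4 (-0.94) and Plxnb2 (-0.19) fell. Per kilobase of exon Plxnb2 was nonetheless the member with the highest level in Kat6a+/+ NSPCs, at 98.5 ± 6.40 RPKM (CPM divided by the exon length in kilobases; SD, n = 4) in proliferating NSPCs.

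Among the semaphorins, Sema5a rose with the largest fold change. Sema5a was at 8.69, 8.84, 13.9 and 16.4 CPM in Kat6a+/+ cells, 10.4, 16.8, 13.0 and 34.9 CPM in Kat6a+/– cells and 34.1, 17.6, 25.8 and 36.4 CPM in Kat6a–/– libraries. All Kat6a–/– libraries were above all Kat6a+/+ libraries, but the lowest Kat6a–/– library was close to the highest Kat6a+/+ library. The log2 fold change was 1.25 (SE 0.31, limma FDR 0.0103), and without Kat6a+/+ replicate 1 it was 1.10 and no longer called (limma FDR 0.0559), nor was it with litter as a fixed term (0.68, limma FDR 0.109). The membrane-bound Sema6a and Sema6d rose by 0.61 and 0.35 and the secreted Sema3a by 0.55 on the log2 scale, while Sema6c fell by 0.86.

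Among the Eph receptors, Epha5 rose 2.12-fold in mean CPM. It was at 35.7, 34.6, 45.2 and 40.6 CPM in Kat6a+/+ cells, 39.0, 44.4, 55.1 and 48.6 CPM in Kat6a+/– cells and 90.4, 79.4, 80.6 and 80.5 CPM in Kat6a–/– libraries. The Kat6a–/– libraries were all above the others, and Kat6a+/+ and Kat6a+/– overlapped (log2 fold change for Kat6a–/– vs. Kat6a+/+ 1.06, SE 0.10, limma FDR 1.62e-05). Epha4 was at 2.42, 3.61, 7.29 and 2.83 CPM in Kat6a+/+ cells, 4.03, 4.41, 3.43 and 9.38 CPM in Kat6a+/– cells and 6.69, 6.95, 9.74 and 17.5 CPM in Kat6a–/– libraries. The groups overlapped at Kat6a+/+ replicate 3, and the call of Epha4 (log2 fold change 1.46, SE 0.35, limma FDR 0.00777) was lost without Kat6a+/+ replicate 1 (1.06, limma FDR 0.0692) and when litter was a fixed term (0.93, limma FDR 0.0913). Ephb1 rose by 0.57 and Ephb4 fell by 0.45 on the log2 scale. Of the ephrin ligands, Efnb2 (0.49) and Efnb3 (0.48) rose, and Efna2 (-0.83) and Efnb1 (-0.33) fell. Efna2 was at 15.9, 12.4, 15.5 and 16.7 CPM in Kat6a+/+ cells and 11.9, 8.13, 8.86 and 6.17 CPM in Kat6a–/– libraries, with no overlap.

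The 10 risen members Epha5, Ephb1, Nrp1, Ntn1, Plxna2, Plxnc1, Robo1, Robo2, Sema6a and Sema6d and the 2 fallen members Efna2 and Slit2 were called in the fit above and in each of the 20 other fits of proliferating NSPCs. These comprised 8 other ways of processing and the 12 fits without 1 library.

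In differentiating NSPCs, loss of Kat6a was accompanied by higher levels of the secreted semaphorin Sema3f and the plexin Plxnd1, and by lower levels of the netrin receptor Dcc and of Sema6c. These 4 members were also called in each of the 22 other fits run, and the other calls depended on the quality weights or on single libraries. With the weights 42 of the 63 tested members (66.7%) were called in Kat6a–/– vs. Kat6a+/+ NSPCs, 22 higher and 20 lower, compared with 54.4% of all 13339 genes, of which 26.7% were called higher and 27.7% lower. Without the weights 18 were called (28.6%), 8 higher and 10 lower, compared with 23.2% of all genes (10.8% higher and 12.4% lower). Without Kat6a–/– replicate 1 4 were called (9.01% of all genes), without Kat6a–/– replicate 3 5 were called (6.99%), and without Kat6a–/– replicate 2 52 (70.6%). By family, 9 semaphorins rose and 5 fell of 19 tested, 4 plexins and neuropilins rose and 3 fell of 11, 4 Eph receptors rose and 4 fell of 11, 3 netrin family genes rose and 3 fell of 8, 2 ephrins rose and 1 fell of 8, and 4 of 6 tested Slits and Robos fell. Without the weights these counts were 3 and 2, 2 and 1, 2 and 2, 1 and 1, 0 and 1, and 0 and 3. The Kat6a–/– libraries lay wholly above the Kat6a+/+ libraries in 7 members, compared with 12.2% of all genes, and wholly below in 10, compared with 14.7%. Within litters 4633 and 4746, 19 of the 22 risen members were higher in both, with Ephb4, Sema3a and Sema3d the exceptions, and all 20 fallen members were lower in both. Here too the libraries of these litters helped to make the calls, so the agreement is no separate check, and the share over all called genes was not counted.

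Dcc fell most. In differentiating NSPCs it was at 51.7, 20.2, 44.6 and 32.2 CPM in Kat6a+/+ cells, 17.2, 23.5, 23.9 and 19.1 CPM in Kat6a+/– cells and 0.828, 4.66, 3.00 and 6.22 CPM in Kat6a–/– libraries. All Kat6a–/– libraries were below all others, and the Kat6a+/+ and Kat6a+/– libraries overlapped. The mean CPM was 10.1-fold lower in Kat6a–/– than in Kat6a+/+ NSPCs (log2 fold change -3.92, SE 0.35, limma FDR 5.74e-06; -3.52 without weights), with -4.41 and -3.38 within the litters. Unc5b, the only Unc5 receptor called higher, was at 13.9, 17.5, 15.7 and 12.7 CPM in Kat6a+/+ cells and at 66.1, 6.70, 53.3 and 10.4 CPM in Kat6a–/– libraries. Its Kat6a–/– libraries 1 and 3 were above, and 2 and 4 below, every Kat6a+/+ library, so the call with weights (log2 fold change 1.55, SE 0.36, limma FDR 0.00302) was not made without them (0.59, limma FDR 0.52) and the value was 0.28 and -0.0018 without Kat6a–/– replicate 1 or 3. Unc5d was at 0.541 to 1.10 CPM in Kat6a+/+ cells and at 0.069, 1.47, 0.180 and 0.898 CPM in Kat6a–/– libraries (log2 fold change -1.68 with weights, -0.82 and not called without; -0.54 and -0.45 and not called without Kat6a–/– replicate 1 or 3).

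The netrin ligands differed in direction. Ntn1 was at 205, 195, 191 and 230 CPM in Kat6a+/+ cells, 231, 138, 167 and 84.98 CPM in Kat6a+/– cells and 120, 167, 114 and 131 CPM in Kat6a–/– libraries. Every Kat6a–/– library was below every Kat6a+/+ library, with a log2 fold change of -0.77 (SE 0.19, limma FDR 0.0046) that was -0.64 and not called without weights (limma FDR 0.0781) or without Kat6a–/– replicate 1 or 3 (-0.54 and -0.45). Ntn4 was at 140, 202, 155 and 122 CPM in Kat6a+/+ cells, 174, 230, 187 and 168 CPM in Kat6a+/– cells and 399, 133, 382 and 286 CPM in Kat6a–/– libraries. It was above all Kat6a+/+ libraries in 3 of 4 Kat6a–/– libraries (log2 fold change 1.27, SE 0.16, limma FDR 4.77e-05; 0.86 and limma FDR 0.0586 without weights). Ntn3 rose by 0.59 with weights and by 0.38 without, and was called in both, but in only 10 of the 12 fits that left out 1 library.

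Slits and Robos fell or were not called. Slit2 was at 15.5, 17.8, 27.3 and 14.4 CPM in differentiating Kat6a+/+ cells, 16.1, 27.4, 16.5 and 19.9 CPM in Kat6a+/– cells and 4.62, 4.87, 10.8 and 10.1 CPM in Kat6a–/– libraries. All Kat6a–/– libraries were below all others (log2 fold change -1.07, SE 0.28, limma FDR 0.00615; -1.35 without weights, called), although the call was lost without Kat6a–/– replicate 1 (-1.37, limma FDR 0.0923) and when litter was a fixed term (-1.48, limma FDR 0.0614). Slit1 was at 8.38, 2.43, 5.34 and 6.25 CPM in Kat6a+/+ cells, 1.37, 6.23, 5.73 and 2.00 CPM in Kat6a+/– cells and 2.14, 0.890, 2.82 and 0.898 CPM in Kat6a–/– libraries. The Kat6a+/+ and Kat6a–/– groups overlapped at Kat6a+/+ replicate 2 (log2 fold change -1.37, SE 0.44, limma FDR 0.0202; -1.70 without weights), and the call was lost without Kat6a–/– replicate 1 or 3 or Kat6a+/+ replicate 1 (-1.91, -2.24 and -1.02). Robo2 was at 115, 118, 125 and 121 CPM in Kat6a+/+ cells, 130, 67.8, 108 and 124 CPM in Kat6a+/– cells and 76.4, 113, 60.5 and 68.6 CPM in Kat6a–/– libraries. It was lower in every Kat6a–/– library than in any Kat6a+/+ library (log2 fold change -0.87, SE 0.14, limma FDR 0.000229; -0.63 and limma FDR 0.0514 without weights), and it was not called without Kat6a–/– replicate 1 or 3 (-0.52 and -0.33). Robo3, which modulates Slit signalling, fell by 1.10 with weights and by 1.28 without, and was called in both. With 1 library left out, Robo3 was called in 8 of 12 fits. Robo1 was at 117, 86.3, 123 and 84.8 CPM in Kat6a+/+ cells and 146, 89.2, 139 and 90.1 CPM in Kat6a–/– libraries (log2 fold change 0.25, limma FDR 0.142; -0.0040 without Kat6a–/– replicate 1 and -0.067 without Kat6a–/– replicate 3, but 0.31 and 0.32 and called without replicate 2 or 4). Slit3 was at most 3.71 CPM in any library, and its direction was not settled (log2 fold change -0.14, limma FDR 0.851).

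Sema3f, a secreted semaphorin that acts through Nrp2, rose. It was at 15.8, 30.8, 18.3 and 16.8 CPM in Kat6a+/+ cells, 27.2, 48.5, 30.5 and 24.99 CPM in Kat6a+/– cells and 104, 38.4, 94.5 and 63.0 CPM in Kat6a–/– libraries. All Kat6a–/– libraries were above all Kat6a+/+ libraries, and Kat6a+/– replicate 2 was above Kat6a–/– replicate 2. The mean CPM was 3.66-fold higher in Kat6a–/– than in Kat6a+/+ NSPCs (log2 fold change 2.30, SE 0.20, limma FDR 4.89e-06; without weights 1.82, limma FDR 0.00253), with 1.78 and 2.48 within the litters.

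Sema6c fell in both conditions. It was at 23.0, 21.7, 24.3 and 22.7 CPM in differentiating Kat6a+/+ cells, 19.9, 18.03, 23.4 and 19.9 CPM in Kat6a+/– cells and 11.2, 10.6, 11.7 and 16.2 CPM in Kat6a–/– libraries, with the Kat6a–/– libraries below all others (log2 fold change -0.96, SE 0.09, limma FDR 6.67e-06; -0.90 without weights). Sema4g was at 47.6, 39.2, 40.9 and 49.7 CPM in Kat6a+/+ cells, 35.3, 28.6, 39.1 and 23.6 CPM in Kat6a+/– cells and 13.2, 34.1, 16.2 and 25.9 CPM in Kat6a–/– libraries (log2 fold change -1.39, and -1.08 without weights, called in both). The Kat6a–/– libraries were below all Kat6a+/+ libraries, and without Kat6a–/– replicate 1 or 3 Sema4g was not called (-0.88 and -0.84; limma FDR 0.0766 and 0.132).

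For 4 other semaphorins the Kat6a–/– libraries split as described above. Sema7a was at 5.26, 4.38, 2.17 and 4.00 CPM in Kat6a+/+ cells and 17.3, 3.67, 17.8 and 8.66 CPM in Kat6a–/– libraries (log2 fold change 2.04, and 1.38 without weights, called in both, but 1.10 and 0.85 and not called without Kat6a–/– replicate 1 or 3). Sema3e was at 4.88, 8.87, 8.43 and 4.33 CPM in Kat6a+/+ cells, 10.4, 27.8, 3.42 and 16.5 CPM in Kat6a+/– cells and 26.6, 10.8, 26.1 and 18.2 CPM in Kat6a–/– libraries (1.96; 1.59 and limma FDR 0.0544 without weights; 1.42 and 1.30 and not called without Kat6a–/– replicate 1 or 3). Sema3d was at 3.34, 2.22, 3.23 and 1.58 CPM in Kat6a+/+ cells and 7.45, 0.733, 16.3 and 5.00 CPM in Kat6a–/– libraries (1.92; 0.89 and not called without weights; 0.27 and -0.51 without Kat6a–/– replicate 1 or 3). Sema3d and Sema7a were thus above Kat6a+/+ in 3 of the 4 Kat6a–/– libraries and within or below it in replicate 2. Sema4a was at 1.42, 0.974, 1.73 and 1.04 CPM in Kat6a+/+ cells and 0.345, 1.83, 0.240 and 1.22 CPM in Kat6a–/– libraries (-1.75; -0.77 and not called without weights; -0.78 and -0.34 and not called without Kat6a–/– replicate 1 or 3), and Sema4f, at a mean of 0.387 CPM in Kat6a+/+ cells and 0.939 CPM in Kat6a–/– libraries, had a log2 fold change of 2.06 that was not called without weights (1.31).

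Of the plexins, Plxnd1, a receptor of Sema3e, rose in every Kat6a–/– library. It was at 35.9, 66.8, 28.9 and 40.7 CPM in Kat6a+/+ cells, 82.5, 59.5, 50.3 and 72.8 CPM in Kat6a+/– cells and 189, 111, 130 and 109 CPM in Kat6a–/– libraries. The Kat6a–/– libraries lay above all others and the mean CPM was 3.13-fold higher than in Kat6a+/+ NSPCs (log2 fold change 1.91, SE 0.21, limma FDR 1.85e-05; 1.68 without weights), with 2.32 and 1.67 within the litters. Plxna1 was at 206, 253, 208 and 203 CPM in Kat6a+/+ cells, 230, 308, 238 and 243 CPM in Kat6a+/– cells and 493, 254, 444 and 279 CPM in Kat6a–/– libraries. Its lowest Kat6a–/– library, replicate 2, was level with the highest Kat6a+/+ library (log2 fold change 1.00; 0.70 without weights, called in both). With 1 library left out, Plxna1 was called in 10 of 12 fits. Plxnc1 was at 68.5, 44.7, 57.0 and 71.0 CPM in Kat6a+/+ cells, 55.2, 40.2, 54.9 and 44.7 CPM in Kat6a+/– cells and 12, 48.0, 13.8 and 33.4 CPM in Kat6a–/– libraries. Its Kat6a–/– replicate 2 was within the Kat6a+/+ range (log2 fold change -1.99, SE 0.22, limma FDR 2.41e-05; -1.38 without weights, called), and without Kat6a–/– replicate 1 or 3 it was not called (-1.20 and -1.04). Among the rest of the family Nrp1 (0.95) and Plxnb2 (0.37) rose, and Nrp2 (-0.93) and Plxnb1 (-0.55) fell, with weights only.

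Epha2 and Epha3 moved in opposite directions among the Eph receptors. Epha2 was at 9.42, 20.1, 8.76 and 8.12 CPM in Kat6a+/+ cells, 19.6, 40.4, 14.1 and 13.6 CPM in Kat6a+/– cells and 109, 12.7, 71.8 and 33.4 CPM in Kat6a–/– libraries (log2 fold change 2.76, SE 0.33, limma FDR 3.92e-05; 1.98 without weights, called). Its Kat6a–/– replicate 2 lay within the Kat6a+/+ range, and without Kat6a–/– replicate 1 or 3 it was not called (1.59 and 1.52; limma FDR 0.136 and 0.214). Epha3 was at 12.9, 7.90, 11.2 and 12.4 CPM in Kat6a+/+ cells, 5.37, 5.44, 8.93 and 7.75 CPM in Kat6a+/– cells and 2.69, 7.12, 3.36 and 7.57 CPM in Kat6a–/– libraries. All Kat6a–/– libraries were below all Kat6a+/+ libraries (log2 fold change -1.65; -1.19 without weights, called in both; -1.17 and -1.10 and not called without Kat6a–/– replicate 1 or 3). Epha5 was at 198, 169, 184 and 249 CPM in Kat6a+/+ cells, 204, 70.9, 173 and 201 CPM in Kat6a+/– cells and 42.0, 266, 70.8 and 149 CPM in Kat6a–/– libraries. Its Kat6a–/– replicate 2 was above every Kat6a+/+ library, and the call with weights (-1.41) was not made without them (-0.92, limma FDR 0.208) or without Kat6a–/– replicate 1 or 3 (-0.47 and -0.48). Epha4, at 117, 132, 118 and 101 CPM in Kat6a+/+ cells and 139, 56.6, 131 and 97.3 CPM in Kat6a–/– libraries, was not called. Ephb1 was at 55.3, 49.1, 59.4 and 57.4 CPM in Kat6a+/+ cells, 38.4, 29.4, 53.7 and 33.3 CPM in Kat6a+/– cells and 28.0, 30.7, 36.6 and 42.9 CPM in Kat6a–/– libraries, and fell by 0.67 with weights and by 0.69 without. Epha10 (-2.99, not called without weights) was at a mean of 1.33 CPM in Kat6a+/+ cells and 0.351 CPM in Kat6a–/– NSPCs. Ephb6 rose in both fits (0.90 and 0.84), and Ephb3 (0.91) and Ephb4 (0.27) with weights only. With 1 library left out, Ephb1 and Ephb6 were each called in 10 of 12 fits.

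Of the ephrins, Efna2 was at 8.38, 4.22, 6.79 and 7.16 CPM in Kat6a+/+ cells, 2.45, 6.10, 5.46 and 4.14 CPM in Kat6a+/– cells and 1.17, 2.72, 2.04 and 3.21 CPM in Kat6a–/– libraries. All Kat6a–/– libraries were below all Kat6a+/+ libraries (log2 fold change -1.80; -1.54 without weights, called in both), and without Kat6a–/– replicate 1 or 3 it was not called (-1.51 and -1.67). Efnb2 was at 82.0, 124, 88.8 and 98.6 CPM in Kat6a+/+ cells, 100.3, 193, 113 and 109 CPM in Kat6a+/– cells and 299, 81.3, 256 and 128 CPM in Kat6a–/– libraries. In Efnb2 Kat6a–/– replicate 2 was below all Kat6a+/+ libraries and the others above them (1.38; 0.79 and limma FDR 0.139 without weights; 0.64 and 0.52 and not called without Kat6a–/– replicate 1 or 3), and Efna3 rose with weights only (1.10; 0.67 without).

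**Figure D3:**
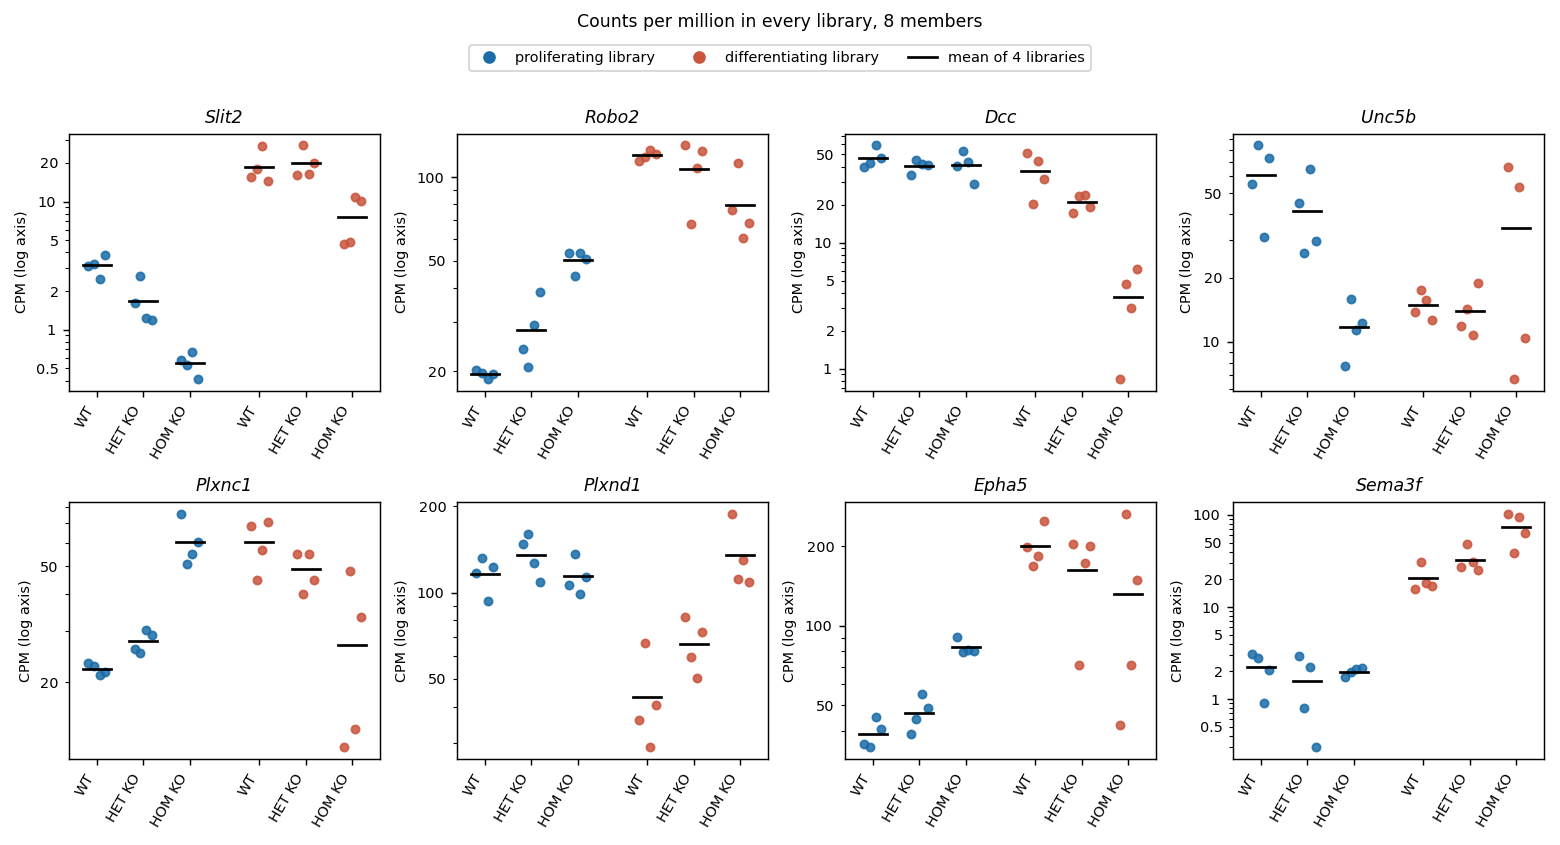
CPM of named members in each library by genotype and condition, on a log axis; each point is 1 library and each black line the mean of 4, and levels are scaled separately in each condition. In differentiating Kat6a–/– NSPCs Dcc lies below and Plxnd1 above all Kat6a+/+ libraries, while the Kat6a–/– points of Unc5b and Epha5 fall on both sides of them.

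No member was called in Kat6a+/– vs. Kat6a+/+ NSPCs in either condition by edgeR or DESeq2, whose shares over all genes are not given here. By limma 0 members were called, against 0 of all genes (percent called 0). At an unadjusted p under 0.05 there were 6 of 55 tested members in proliferating (912 of 12276 genes) and 10 of 63 in differentiating NSPCs (1926 of 13339 genes). The smallest p-values in proliferating NSPCs belonged to Slit2 (log2 fold change -0.91, SE 0.24, limma FDR 0.408), Robo2 (0.47, SE 0.14, limma FDR 0.462) and Epha5 (0.25, SE 0.10, limma FDR 0.605). In differentiating NSPCs they belonged to Plxnd1 (0.97, SE 0.22, limma FDR 0.162), Ephb1 (-0.55, SE 0.13, limma FDR 0.163) and Epha3 (-0.87, SE 0.24, limma FDR 0.199). Without Kat6a+/– replicate 3 of the differentiating NSPCs 6 members were called, 2 higher and 4 lower, compared with 2.23% of all genes in that fit, among them Plxnd1 (1.13, limma FDR 0.0283), Ephb1 (-0.61, limma FDR 0.0258) and Epha3 (-1.03, limma FDR 0.0407), and without Kat6a+/+ replicate 2 only Plxnd1 was (1.04, limma FDR 0.0230), compared with 1.08% of all genes. In proliferating NSPCs the Kat6a+/– libraries lay wholly above the Kat6a+/+ libraries for Plxnc1, Robo2 and Ntn3 and wholly below for Ephb6, that is 3 and 1 of 55, compared with 2.26% and 2.31% of all genes. In differentiating NSPCs they lay wholly below for Sema4g alone, 1 of 63, compared with 1.45% of all genes, and above for none, compared with 1.40%. These 4 and 1 members were named after their values were seen.

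Compared with Kat6a+/– NSPCs, Kat6a–/– NSPCs differed in fewer members than compared with Kat6a+/+ NSPCs, though the Kat6a–/– libraries are shared by both comparisons and the difference between them was not tested. In proliferating NSPCs 12 of 55 members were called, 8 higher and 4 lower, against 14.8% of all genes (8.47% higher and 6.30% lower). Plxnc1 (1.13), Robo2 (0.86), Epha5 (0.81), Robo1 (0.57), Plxna2 (0.46), Nrp1 (0.45), Sema6a (0.44) and Sema6d (0.30) were higher and Unc5b (-1.74), Slit2 (-1.46), Efna2 (-0.66) and Efnb1 (-0.36) were lower on the log2 scale. Without Kat6a+/– replicate 1 this count was 6 (6.48% of all genes). In differentiating NSPCs 31 of 63 were called, 16 higher and 15 lower, against 37.5% of all genes (19.1% higher and 18.5% lower), and 7 without weights, 4 higher and 3 lower, against 12.1% (4.72% higher and 7.39% lower). The count was 20 without Kat6a+/– replicate 1 (25.9% of all genes) and 2 without either Kat6a–/– replicate 1 (2.57%) or Kat6a–/– replicate 3 (1.81%).

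The sign of the genotype difference changed between the conditions for several receptors and ligands. Of the members tested in both, 16 were called in both conditions, and 10 of these had opposite signs (62.5%), compared with 669 of 2207 genes called in both (30.3%). Members higher in proliferating and lower in differentiating NSPCs were Plxnc1, Robo2, Ntn1, Sema6a, Epha5, Unc5d and Ephb1, and those lower and then higher were Unc5b, Plxnb2 and Ephb4. Sema3a, Efnb2 and Nrp1 rose and Slit2, Efna2 and Sema6c fell in both conditions. The Kat6a+/+ and Kat6a–/– libraries of the conditions were different libraries but 6 embryo labels are shared between them. With the fit of differentiating NSPCs without weights, 5 members were called in both conditions (Efna2, Plxnc1, Sema6c, Slit2 and Ephb1), and 2 of these, Plxnc1 and Ephb1, had opposite signs (40.0%), compared with 174 of 1099 genes (15.8%). In differentiating NSPCs Unc5b, Unc5d, Epha5, Efnb2, Sema3a, Nrp1, Plxnb2, Ephb4, Sema6a, Ntn1 and Robo2 were called with weights only.

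**Figure D4:**
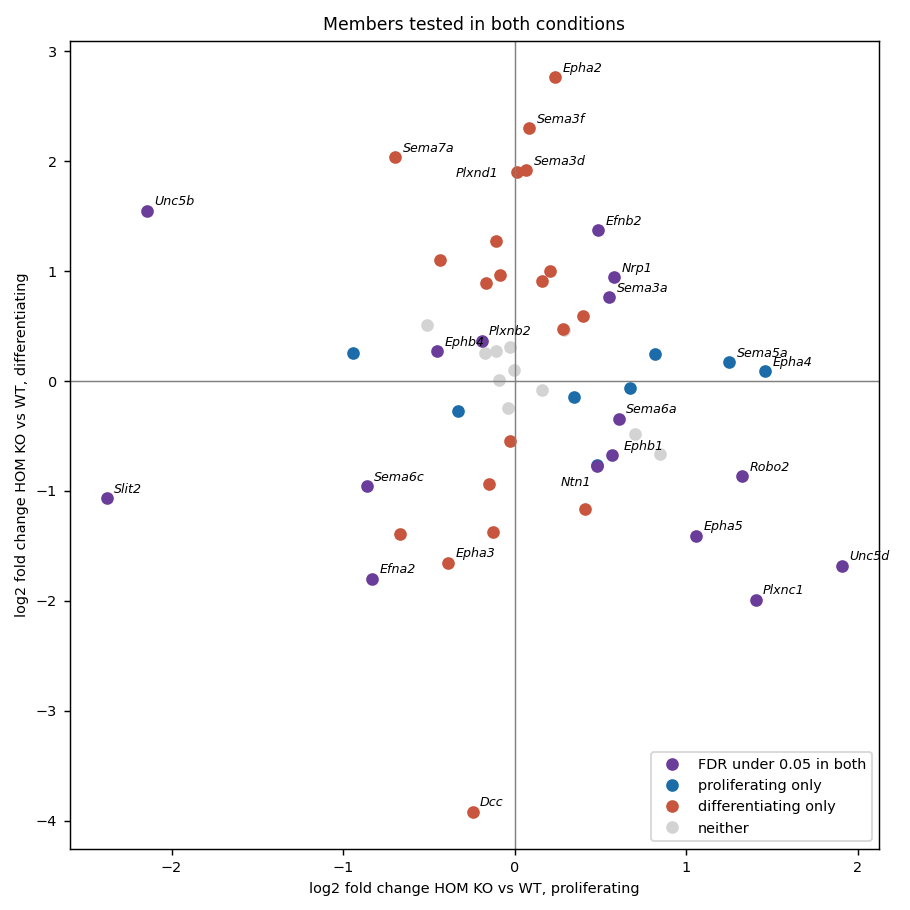
Log2 fold change in Kat6a–/– vs. Kat6a+/+ for each member tested in both conditions, proliferating on the x axis and differentiating on the y axis; each point is a gene, purple if called in both conditions, blue in proliferating only, red in differentiating only and grey in neither. Of the 16 members called in both conditions 10 lie in the upper left or lower right, where the signs are opposite.

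The interaction of condition and genotype, which tests the change of the Kat6a–/– vs. Kat6a+/+ difference from proliferating to differentiating NSPCs in a single fit of all 24 libraries, was called for 11 of 64 members, 3 higher and 8 lower, compared with 13.9% of all 13590 genes (6.36% higher and 7.58% lower). Dcc had the largest negative value (-3.30, SE 0.56, limma FDR 0.000596), and its Kat6a–/– libraries overlapped the Kat6a+/+ libraries in proliferating and lay below them in differentiating NSPCs. Plxnc1 (-2.72, SE 0.40, limma FDR 0.000243), Epha5 (-2.001, SE 0.58, limma FDR 0.0249) and Robo2 (-1.94, SE 0.29, limma FDR 0.000258) went from higher to lower. Ephb1 (-1.28), Ntn1 (-1.07), Plxna2 (-0.89) and Sema6a (-0.79) were the other members with a negative interaction. Positive values were found for Unc5b (2.91, SE 0.89, limma FDR 0.0334), Plxnd1 (1.75, SE 0.30, limma FDR 0.000716) and Ntn4 (1.02, SE 0.33, limma FDR 0.0412). For Plxnd1, the proliferating Kat6a–/– libraries (106, 136, 99.0 and 114 CPM) overlapped the Kat6a+/+ libraries (117, 132, 93.1 and 122 CPM), and in Ntn4 both groups were at 70.4 to 91.9 CPM. Dcc, Ephb1, Ntn1, Plxnc1, Robo2, Sema6a and Plxnd1 were also called in each of the 33 other fits run. The fit takes the 6 embryos that gave a library in both conditions as independent within a litter; with the embryo as the block, chosen after seeing the data, the same 11 members were called for the interaction. Without differentiating Kat6a–/– replicate 2 27 members were called, 12 higher and 15 lower (25.7% of all genes); Unc5b was called in 13 and Ntn4 in 4 of the 24 fits that left out 1 library, with values from 2.33 to 3.47 for Unc5b, and Epha5 was not called without proliferating Kat6a+/+ replicate 1 (-1.99, limma FDR 0.0534). With litter as a fixed term the calls of Epha5, Unc5b and Ntn4 were lost (limma FDR 0.0845, 0.0638 and 0.0884), and that of Ntn4 also with a replicate block (limma FDR 0.0587) and with scaling by library totals (0.87, limma FDR 0.0667). With scaling by library totals 15 were called, 2 higher and 13 lower (17.7% of all genes).

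In Kat6a+/+ NSPCs differentiating conditions went with higher levels of many guidance genes. Of 64 members 31 were higher and 12 lower in differentiating than in proliferating Kat6a+/+ NSPCs, compared with 36.7% and 36.2% of all genes (72.9% called in all), and kit and condition cannot be told apart. The rises include Slit3, Efna5, Sema4a, Sema3e, Sema3b, Epha10 and Robo3, which did not pass the filter in proliferating NSPCs alone. They entered this fit through the differentiating libraries, so the filter favoured a rise and their calls are no support for one. Epha1, among the falls, passed the filter in neither condition alone. The receptor Epha4 (log2 fold change 5.17) and the secreted semaphorins Sema3b (4.39), Sema3e (4.33), Sema3f (3.03) and Sema3c (2.62) rose, as did Efna5 (3.82), Slit3 (3.54), Sema4a (3.23), Unc5c (3.05), Robo2 (2.60) and Slit2 (2.52). In proliferating Kat6a+/+ NSPCs Slit3, Sema4a, Sema3e, Sema3b and Efna5 had means of only 0.00617, 0.122, 0.330, 0.633 and 0.761 CPM. The sizes of their rises are therefore uncertain. Among the falls were Plxnb3 (-4.49), Epha1 (-2.87), Unc5a (-2.02), Sema4b (-1.99), Unc5b (-1.96), Sema4c (-1.74), Plxnd1 (-1.49) and Efna2 (-1.21). Of the 6 Slits and Robos tested 4 rose and none fell, but Slit3 and Robo3 are among these rises and entered the fit through the differentiating libraries. Per kilobase of exon, the highest members in differentiating Kat6a+/+ NSPCs were Plxnb2 at 104 RPKM, Ntn4 at 64.3 RPKM and Sema6d at 52.1 RPKM, and in proliferating Kat6a+/+ NSPCs Plxnb2 was followed by Sema6d at 53.7 RPKM, Ntn4 at 35.4 RPKM and Ntn1 at 34.0 RPKM.

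Other genes of the guidance pathways, outside the 6 families, were also counted. Of 13 tested co-receptors and other cues, 4 rose and 1 fell in proliferating Kat6a–/– vs. Kat6a+/+ NSPCs: the adhesion molecules Chl1 (3.22), Flrt2 (1.19), Lrrc4c (1.04) and Nrcam (0.52) rose and Ntng1 (-1.62) fell. Over all genes 30.0% were called in this comparison, and 54.4% in that of differentiating NSPCs with weights (23.2% without). In differentiating NSPCs 4 of 18 rose and 8 fell, including Chl1 (1.87) and Met (1.48) among the rises and Dscaml1 (-3.22), Draxin (-2.20), Islr2 (-2.11), Ntng2 (-1.70) and Dscam (-1.31) among the falls; Draxin is a secreted netrin antagonist and Dscam a netrin receptor. Intracellular effectors rose in 4 and fell in 11 of 36 in proliferating NSPCs, with Ablim1 (2.20) and Srgap3 (0.99), a Robo effector, higher and Pak1 (-1.42), Mical2 (-1.41) and Crmp1 (-0.82) lower. In differentiating NSPCs 18 rose and 12 fell of 37, with Mical2 (2.02), Mical1 (1.09) and Rock2 (0.80) higher and Crmp1 (-1.60) and Pak1 (-1.34) lower. These values in differentiating NSPCs are from the fit with weights, and without weights 4 of the 18 co-receptors and cues rose and 2 fell, and 3 of the 37 effectors rose and 4 fell. Not every fall named here was thus called without weights.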

How the data were processed

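RNA was measured by stranded polyadenylated RNA sequencing of 24 cultures. Per the labels and the methods, reads were aligned to mm39 by Rsubread, and featureCounts gave the raw counts per RefSeq gene that the authors deposited; versions and the strand setting are not given in the sources used here, so genes that overlap on opposite strands are uncertain. Biotypes were matched by Entrez identifier for 26359 of 26411 genes. Protein-coding genes without Xist and Y-unique genes that passed filterByExpr were scaled by TMM and fitted following the stated methods: limma-voom with litter as a random block (correlation 0.287) for proliferating NSPCs, limma-trend on log2 CPM (prior count 2) with quality weights for differentiating NSPCs, both with robust empirical Bayes, and limma-voom of all libraries with a litter block for comparisons across conditions. CPM use the TMM-scaled totals of the tested genes of each condition, so levels are not on 1 scale across conditions. Within-litter differences are of mean log2(CPM + 0.1). The deposited counts were used as they are, and no table column of other samples was used.

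Members and lists were chosen with earlier results of these data known. Named with a value in every library were called members with an absolute log2 fold change above 1 and a fitted mean log2 CPM above 0 (up to 8 rises and 8 falls per condition), a core set (Slit1 to Slit3, Robo1, Robo2, Ntn1, Dcc, Unc5d), the 3 members with the smallest p in Kat6a+/– NSPCs and those with the 3 largest called interactions on each side. Replicates are separate embryos, some from shared litters, and no pair of libraries within a group agreed within sampling noise (lowest chi-square per degree of freedom 4.92). Alternatives were edgeR, DESeq2, other scaling, filters and blocks, and leaving out each library. The code was tested on simulated data with R 4.3.3, limma 3.58.1, edgeR 4.0.16 and DESeq2 1.42.0.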

Additional observations from a re-analysis of the deposited data

Results flagged for a closer look

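The Kat6a–/– vs. Kat6a+/+ difference itself differed between proliferating and differentiating NSPCs for 11 of 64 members (17.2%), by an interaction term in limma-voom at an FDR under 0.05. It was lower in differentiating NSPCs for Dcc (-3.30), Plxnc1 (-2.72), Epha5 (-2.001), Robo2 (-1.94), Ephb1 (-1.28), Ntn1 (-1.07), Plxna2 (-0.89) and Sema6a (-0.79), and higher for Unc5b (2.91), Plxnd1 (1.75) and Ntn4 (1.02), on the log2 scale. Over all 13590 genes 13.9% were called, so the share among the members was near that of all genes. With 1 library left out, Unc5b was called in 13 and Ntn4 in 4 of 24 fits.

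In 8 of 147 groups of 4 libraries tested, the highest library stood far from the nearest other by Dixon's criterion, which chance alone meets in about 1 in 20 groups. These were Efnb2 in differentiating Kat6a+/– replicate 2 (193 CPM, next 113), Epha2 in differentiating Kat6a+/+ replicate 2 (20.1 CPM, next 9.42), Epha3 in proliferating Kat6a+/– replicate 1 (4.43 CPM, next 1.40) and Epha4 in proliferating Kat6a+/– replicate 4 (9.38 CPM, next 4.41). The others were Epha5 in proliferating Kat6a–/– replicate 1 (90.4 CPM, next 80.6), Ephb1 in proliferating Kat6a–/– replicate 4 (43.7 CPM, next 28.1), Sema3f in differentiating Kat6a+/+ replicate 2 (30.8 CPM, next 18.3) and Unc5d in proliferating Kat6a+/– replicate 4 (4.19 CPM, next 0.900).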

How the results depend on the processing

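In differentiating NSPCs the count of members called in Kat6a–/– vs. Kat6a+/+ (42) was 25 by DESeq2, 21 by edgeR, 12 by limma-voom with a litter block, 27 with litter as a fixed term and 18 without quality weights, and it ranged from 4 to 52 when 1 library was left out. The count in Kat6a–/– vs. Kat6a+/– (31) was 12 by DESeq2, 6 by edgeR, 6 by limma-voom with a litter block, 4 with litter as a fixed term, 19 without a filter on low counts and 7 without weights, and from 2 to 41 with 1 library left out. A fit without weights and without Kat6a–/– replicate 2, chosen after seeing the data, called 29 vs. Kat6a+/+ and 16 vs. Kat6a+/–. In proliferating NSPCs the Kat6a–/– vs. Kat6a+/+ count (24) was 14 with litter as a fixed term and 15 to 26 with 1 library left out, and the Kat6a–/– vs. Kat6a+/– count (12) was 6 to 17. The Kat6a+/– vs. Kat6a+/+ count was 0 throughout in proliferating NSPCs and 0 to 6 in differentiating NSPCs with 1 library left out. The interaction count (11) was 19 by DESeq2, 17 by edgeR and 8 to 27 with 1 library left out, and the count between conditions in Kat6a+/+ (43) was 39 to 47. Scaling by library totals moved the median of all genes in differentiating Kat6a–/– vs. Kat6a+/+ NSPCs by -0.166, in Kat6a–/– vs. Kat6a+/– by -0.12 and in the interaction by -0.151. In fits with litter as a fixed term, a library alone in its litter adds nothing. The share called over all genes moved as well. Against Kat6a+/+, it was 54.4% for differentiating Kat6a–/– NSPCs with weights and 23.2% without. Against Kat6a+/–, it was 37.5% with weights and 12.1% without. For the interaction it was 13.9% in the main fit, 20.4% by DESeq2, 16.4% by edgeR and 25.7% without differentiating Kat6a–/– replicate 2. The other counts in this section are given without such a share. In those, a change among the members cannot be told apart from a change over all genes. The cause of these shifts was not tested.

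Values that changed sign were those of Slit3 in differentiating NSPCs (main -0.14), at 0.46 by DESeq2, 0.44 by edgeR, 0.62 without weights and Kat6a–/– replicate 2, and from -1.37 to 0.15 with 1 library left out. With 1 library left out, Robo1 in differentiating NSPCs ranged from -0.067 to 0.39, Sema3d from -0.51 to 2.41, Unc5b from -0.0018 to 1.83, and Slit1 in proliferating NSPCs from -0.26 to 0.0046. Over the named results, 370 of 424 other fits kept direction and call, 51 lost the call and 3 changed sign, and of 624 fits without 1 library 540 kept both, 71 lost the call, 6 gained it and 7 changed sign.

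Same-numbered replicates did not deviate together (correlations -0.483 to 0.545, above 0.1 in 5 of 24 pairs), so the numbers were not taken as pairs. With a replicate block the counts were 22 (Kat6a–/– vs. Kat6a+/+), 11 (Kat6a–/– vs. Kat6a+/–) and 0 (Kat6a+/– vs. Kat6a+/+) in proliferating NSPCs, 38, 24 and 0 in differentiating NSPCs, 11 for the interaction and 42 between conditions in Kat6a+/+. Depth limits the low members: Slit2 rested on 4 to 6 reads per proliferating Kat6a–/– library.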

Other observations

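The members left out by the filter on low counts were 14 in proliferating NSPCs (Slit3, Sema3g, Epha6, Efna5, Sema4a, Epha10, Epha8, Sema3e, Epha1, Sema4f, Ntn5, Robo4, Robo3 and Sema3b), at no more than 1.44 CPM in any library, and 6 in differentiating NSPCs (Sema3g, Epha6, Epha8, Epha1, Ntn5 and Robo4), at no more than 1.38 CPM. Epha1, a receptor of A-type ephrins, was at a mean of 0.946, 0.876 and 0.449 CPM in proliferating Kat6a+/+, Kat6a+/– and Kat6a–/– NSPCs. Robo4, a receptor known from blood vessels, was at a mean of 0.108, 0.201 and 0.284 CPM in the same groups, on 0 to 5 reads in each library.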
